A study of Homo sapiens with 4 samples.

Results

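Chromosome 6 was followed through S phase in single cells of DKO1 and of its parent HCT116, a human colorectal cancer cell line. DKO1 was made from HCT116 by disrupting 2 genes of DNA methylation, DNMT1 and DNMT3B, and neither enzyme is measured by these data. The regions described are all bins of chromosome 6 in a table of replication states, 80 kb each, outside the stretch from 25840001 to 33520000. They number 1933 of the 27704 bins in the table, and 87 further bins of the chromosome lie in that stretch. Each line was 1 S-phase library of sorted, pooled early, mid and late S-phase cells, with 207 DKO1 and 322 HCT116 cells, and the 2 libraries share 0 cell barcodes. Coordinates are those of the table, for which the submitters' processing notes name hg19 and GRCh37.

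DNA is copied in a set order. Large domains that are rich in active genes usually replicate early, and domains of compact chromatin, many of them at the nuclear lamina, replicate late. Stretches of intermediate timing, in which a fork travels from an early to a late domain, join them. DNMT1 keeps methylation in place when DNA is copied and DNMT3B can place it on new sites, and late domains of cancer cells are known to lose much of their methylation. The left-out stretch holds the histone genes and the major histocompatibility complex of the short arm. No gene annotation of the table's build was used here, so domains are named by position and not by gene.

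Progress is given per cell as the replicated percent of its called autosomal bins (code 2 among codes 1 and 2). Median progress was 48.8% in DKO1 and 52.7% in HCT116. Cells were grouped by progress in 6 strata of 10 percentage points from 20 to 80%, which held 206 DKO1 and 320 HCT116 cells. The outer strata were small, with 11 DKO1 and 33 HCT116 cells at 20 to 30% and 10 and 19 cells at 70 to 80%. For each bin the percent of cells that had replicated it was averaged over the strata with equal weight, which gave its standardised share, called share from here on. Mean progress over the strata was 49.96% in DKO1 and 49.91% in HCT116. Every bin of the rule was called in at least 93.7% of DKO1 cells and 95.7% of HCT116 cells, so all 1933 were used. With 1 library per line there is no replicate, no test was made, and intervals are exact binomial (Clopper-Pearson) 95% intervals over cells that cover counting error only.

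Both lines divided chromosome 6 into the same broad pattern of early and late domains. Averaged over the lines, 33 early domains (share at least 60% in at least 5 bins in a row) and 36 late domains (at most 40%) were found. The early domains held 31.1% of the bins, the late domains 43.9%, and 24.99% lay outside domains. Early domains had a median length of 0.96 Mb and late domains of 1.44 Mb. The earliest domain by its mean share lay on the short arm from 40800001 to 44800000, with a share of 94.0% in DKO1 and 93.1% in HCT116. The latest lay on the long arm from 91440001 to 95440000, with 10.6% in DKO1 and 8.65% in HCT116. Across bins, which share cells and are not independent, Pearson's r between the lines was 0.937 and Spearman's rho 0.934.

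**Figure D1:**
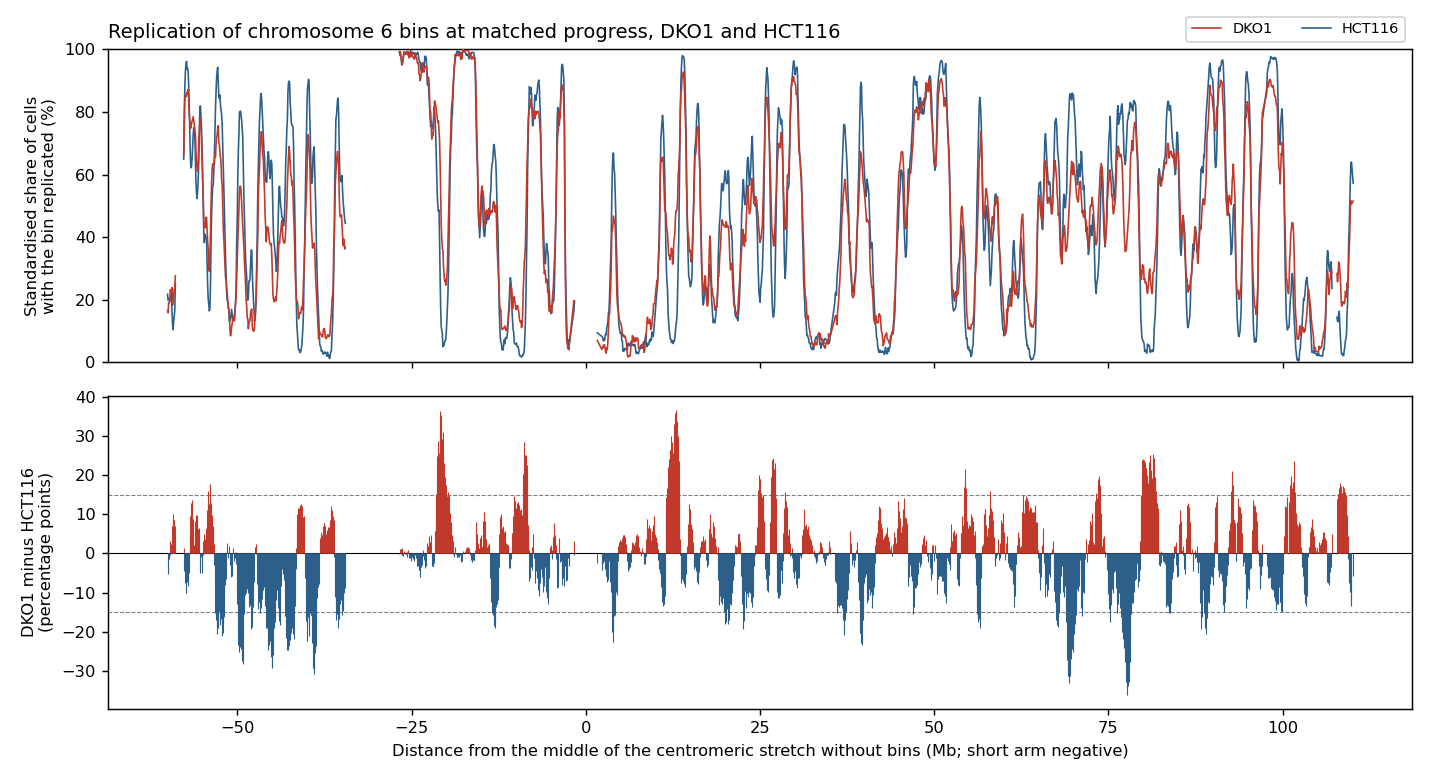
The upper panel plots the standardised share of cells with each bin of chromosome 6 replicated (%) for DKO1 and HCT116, and the lower panel the difference in percentage points, against the distance in Mb from the middle of the centromeric stretch without bins (short arm negative). Dashed lines mark 15 points; the lower values cluster on the outer short arm, and the largest single bin differences were 36.7 points higher and 36.1 points lower in DKO1.

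The profile was flatter in DKO1. Domains cut from each line's own shares numbered 29 early and 38 late in DKO1, and 37 early and 36 late in HCT116. Bins with a share between 40 and 60% made up 25.6% of the chromosome in DKO1 and 17.7% in HCT116. Bins of at least 60% made up 29.2% in DKO1 and 36.2% in HCT116, while bins of at most 40% made up nearly the same part, 45.2% in DKO1 and 46.1% in HCT116. The SD of the share across bins was 26.3 points in DKO1 and 30.6 points in HCT116.

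Averaged over the chromosome the lines hardly differed, but the 3 segments of the chromosome did not move together. The mean share was 44.7% in DKO1 and 45.7% in HCT116, a difference of -0.998 points whose sign turned to 0.0701 points without cells whose chromosome 6 was out of step with their other autosomes. The short arm is split by the left-out stretch into a distal part, from 240001 to 25840000, and a proximal part, from 33520001 to 58720000. The long arm begins after the longest stretch without bins, of 3.2 Mb, and runs from 61920001 to 170480000. In distal 6p the mean share was 40.2% in DKO1 and 47.1% in HCT116, a difference of -6.84 points over 306 bins. In proximal 6p it was 61.4% in DKO1 and 59.3% in HCT116 (2.18 points, 308 bins), and in 6q 41.8% in DKO1 and 42.2% in HCT116 (-0.39 points, 1319 bins). At the edges of the left-out stretch, the last bin of distal 6p had 36.7% in DKO1 and 44.4% in HCT116 and the first bin beyond it 35.6% and 44.8%. On the proximal side, the last left-out bin had 99.2% in DKO1 and 98.7% in HCT116 and the first bin of proximal 6p 99.2% in both.

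Bins that differed by at least 15 points were the most uneven in distal 6p. Over all 27142 used autosomal bins, 7.39% were at least 15 points lower in DKO1 and 6.9% at least 15 points higher. Chromosome 6 had 182 lower bins (9.42%) and 134 higher bins (6.93%), close to that background for the higher ones. The balance was not stable: without cells out of step on chromosome 6 there were 158 lower and 169 higher bins, with code 0 as unreplicated 157 and 156, and with strata of 5 points 172 and 166. Distal 6p alone had 90 lower bins, 29.4% of its bins, and 3 higher bins, 0.98%. It holds 15.8% of the chromosome's bins and held 49.5% of the lower ones. The remainder of the chromosome had 5.65% lower bins. Proximal 6p had 29 higher and 7 lower bins, and 27 of the higher ones lay in 2 stretches of neighbouring bins. Its median bin difference was only 0.301 points, beside -8.03 points in distal 6p, so its higher mean was not a shift of the whole segment. In 6q 7.73% of bins were higher and 6.44% lower.

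The difference in distal 6p was present in every stratum of progress. Among cells at 20 to 30% progress a bin of distal 6p was replicated in a mean of 11.6% of DKO1 cells and 16.6% of HCT116 cells. At 40 to 50% progress the values were 29.6% in DKO1 and 39.1% in HCT116, and at 70 to 80% progress 72.9% in DKO1 and 79.9% in HCT116. DKO1 was the lower line over the whole range covered, with the widest gaps in the 2 middle strata. Progress was not equal within strata. Its mean was 44.3% in DKO1 and 45.4% in HCT116 at 40 to 50%, and 54.2% and 55.1% at 50 to 60%. DKO1 was instead ahead at 20 to 30% (27.1% and 26.1%) and at 30 to 40% (36.3% and 34.8%). The part of this in the width of the gaps was not tested. In proximal 6p DKO1 was the higher line in 5 of the 6 strata, and at 70 to 80% progress the shares were 86.4% in DKO1 and 80.9% in HCT116.

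**Figure D2:**
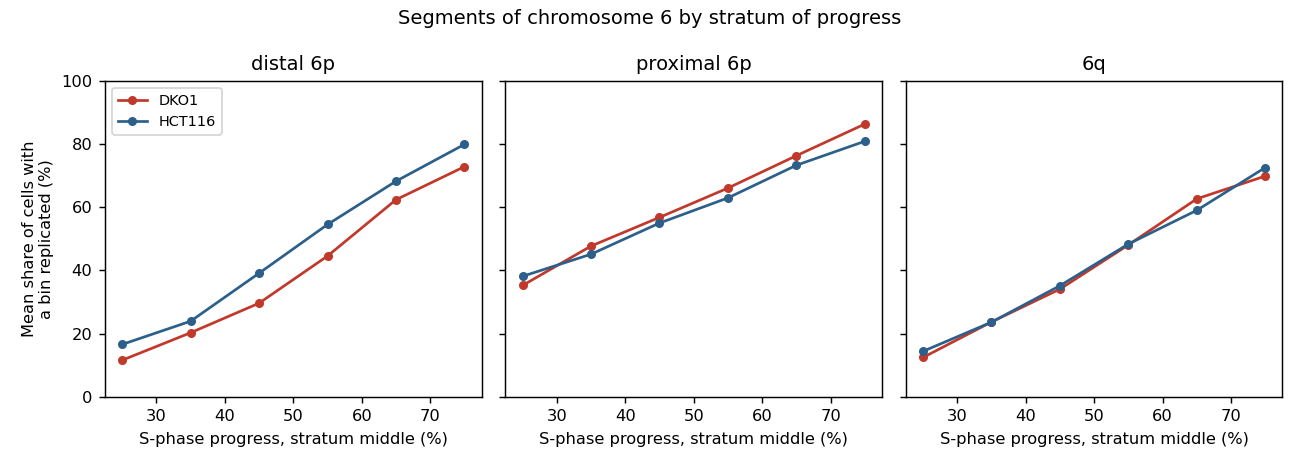
Mean share of cells with a bin replicated (%) by stratum of S-phase progress (%), for DKO1 and HCT116 in distal 6p, proximal 6p and 6q. The DKO1 line lies under the HCT116 line in all 6 strata of distal 6p, and the lines lie close together in 6q.

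Single cells showed the same shift of distal 6p. In mid-S cells, those at 40 to 60% progress, the median cell had replicated 38.1% of distal 6p in DKO1 (quartiles 27.8 and 46.2%, 104 cells) and 48.4% in HCT116 (quartiles 39.5 and 55.9%, 138 cells). Of the DKO1 cells, 88 of 104 lay below the HCT116 median (84.6%, interval 76.2 to 90.9%). For proximal 6p 49 of 104 lay below it (47.1%, 37.2 to 57.2%), and for 6q 54 of 104 (51.9%, 41.9 to 61.8%). Median progress among mid-S cells was 49.7% in DKO1 and 51.8% in HCT116. The mid-S DKO1 cells were thus less advanced by their median, here and in the mid-S values below. The part of this in the gaps was not tested.

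**Figure D3:**
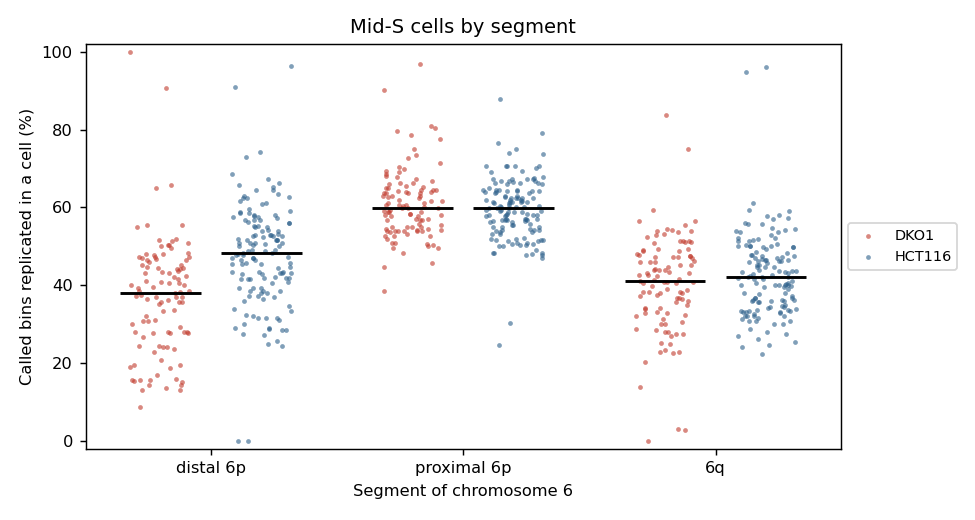
Percent of called bins replicated in each mid-S cell, 1 point per cell, for DKO1 and HCT116 in the 3 segments of chromosome 6; black bars are medians. The DKO1 median of distal 6p is 38.1%, under the HCT116 median of 48.4%, and the medians of proximal 6p are 59.9% in DKO1 and 59.7% in HCT116.

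Within distal 6p the most negative domain values lay in early domains inward of 6.8 Mb. The 2 outermost early domains hardly differed: from 2560001 to 4400000 the share was 78.5% in DKO1 and 77.4% in HCT116, and from 4640001 to 5280000 it was 72.1% in DKO1 and 72.5% in HCT116. Each of the 6 early domains further in was lower in DKO1. The most negative difference of any domain of the chromosome was in the domain from 10480001 to 11040000, with 52.5% in DKO1 and 77.6% in HCT116. It was followed within distal 6p by the domains from 17360001 to 18320000 (60.2% in DKO1 and 81.1% in HCT116) and from 20160001 to 20800000 (64.4% and 82.4%). Every bin of these 3 domains was lower in DKO1. Over the 8 early domains of distal 6p the median difference was -14.7 points. Its 7 late domains were mixed, with 4 higher and 3 lower in DKO1 and a median difference of 2.85 points. Of the lower ones, the domain from 15360001 to 16160000 had 21.9% in DKO1 and 36.7% in HCT116, with all 10 bins lower, and the domain from 11280001 to 13200000 had 17.5% in DKO1 and 27.0% in HCT116, with 22 of 24 bins lower.

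The 50% time, the progress at which 50% of a line's cells had most of a domain replicated on a fitted logistic curve, came later in DKO1 in 7 of the 8 early domains of distal 6p. Its median over them was 39.9% in DKO1 and 31.2% in HCT116. For the domain from 10480001 to 11040000 the 50% time was 44.3% in DKO1 and 29.1% in HCT116. Among mid-S cells with that domain called, most of it was replicated in 62 of 103 DKO1 cells and 118 of 137 HCT116 cells. It was wholly unreplicated (at most 10% of its bins replicated) in 30.1% of DKO1 and 7.30% of HCT116 cells, and partly replicated in 24.3% and 19.0%. It was wholly replicated (at least 90% of its bins) in 45.6% of DKO1 and 73.7% of HCT116 cells. The lines thus differed least in how many cells had replicated it in part.

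Bins were also compared within classes of their share in HCT116. Among bins with an HCT116 share of 60 to 90%, the mean share in distal 6p was 60.5% in DKO1 and 74.4% in HCT116, a difference of -13.9 points. Bins of the same class differed by -9.38 points in 6q (337 bins), by -2.29 points in proximal 6p (70 bins) and by -5.57 points on the other autosomes (6241 bins). The class was set by HCT116 values, which favours bins that are high in that line. In the latest class, at most 10% in HCT116, DKO1 was higher in all 3 segments, by 7.998 points in distal 6p, 11.3 points in proximal 6p and 6.97 points in 6q, beside 6.93 points on the other autosomes. Choosing this class favours bins that are low in HCT116 and leaves little room below them. Its sign is therefore no result about the segments.

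The other autosomes were also cut into 73 blocks of 306 consecutive bins, a comparison added after the data were seen. A median of 6.54% of a block's bins were at least 15 points lower in DKO1. In 1 of the 73 blocks, on chromosome 4 from 105280001 to 133600000, this percent was above that of distal 6p (30.1%). The mean difference of the blocks ran from -9.59 to 8.72 points with a median of 0.12 points, and 1 block lay under the -6.84 points of distal 6p. Code 0, read as not called, took 1.14% of distal 6p calls in DKO1 and 0.627% in HCT116. Among the 77 DKO1 and 205 HCT116 cells with code 0 in at most 1% of their bins, which fill the strata from 30 to 70%, distal 6p differed by -8.67 points, against -7.25 points with all cells of those strata.

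Where neighbouring bins differed together, runs of at least 5 bins each at least 15 points apart were collected. There were 17 runs lower in DKO1, with 157 bins (8.12% of the chromosome's bins), and 9 runs higher, with 117 bins (6.05%). Over all used autosomal bins, 5.67% lay in lower and 5.38% in higher runs. Distal 6p held 8 of the 17 lower runs and 0 of the higher ones. Proximal 6p held 1 lower and 2 higher runs, and 6q held 8 lower and 7 higher runs. The excess of lower runs was not stable, with 13 lower and 14 higher runs when code 0 was read as unreplicated and 12 lower and 10 higher without cells out of step on chromosome 6. These runs were picked for their difference, so their values are a description, and picking the extremes of the same cells inflates them.

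**Figure D4:**
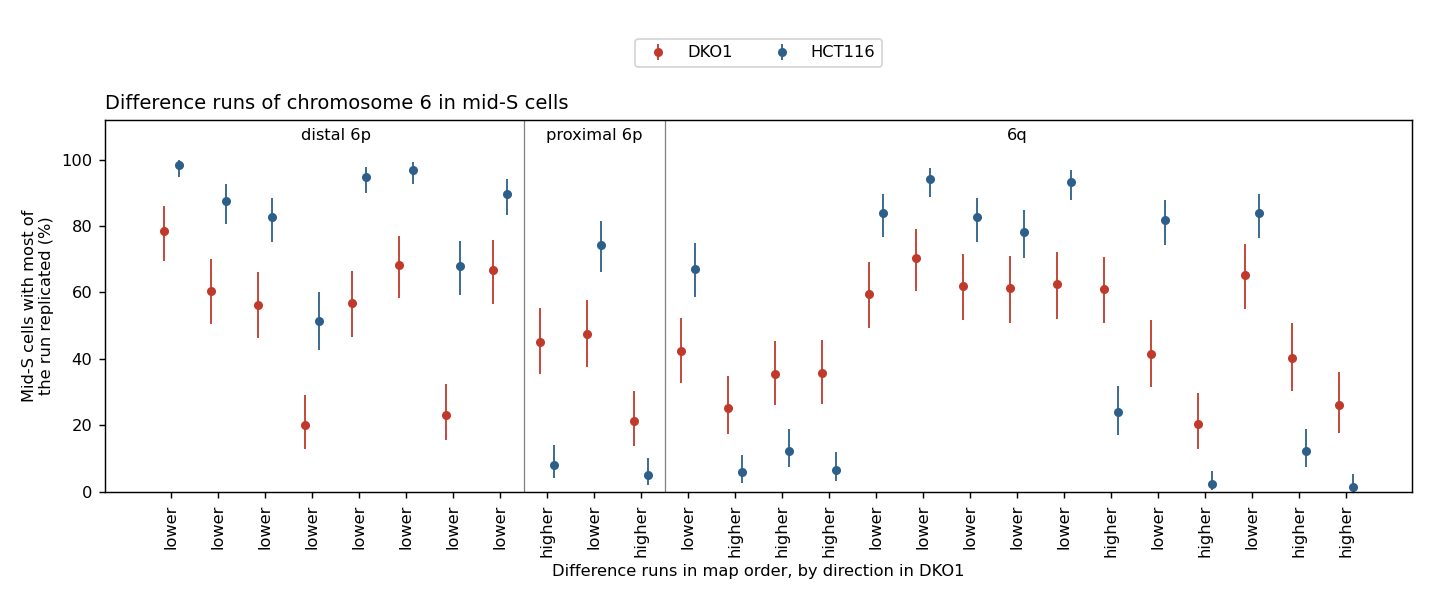
Percent of mid-S cells with most of a run replicated, for DKO1 and HCT116, in the 26 difference runs of chromosome 6 in map order; bars are exact binomial 95% intervals over cells. All 8 runs of distal 6p are lower in DKO1, and 6q holds runs of both directions, mostly in groups of 1 direction, where the HCT116 points of the higher runs lie between 1.45 and 23.9%.

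The mean share over the 9 higher runs was 39.98% in DKO1 and 19.0% in HCT116, so that these runs were mostly late in HCT116. The largest mean difference, 27.7 points, was that of the run from 71920001 to 73680000 on 6q, where the share was 41.3% in DKO1 and 13.6% in HCT116. This run lies between the early domains from 70960001 to 71600000 and from 73760001 to 74720000. The 10 bins before the run had a share of 56.2% in DKO1 and 62.0% in HCT116, and the 10 bins after it 84.6% in DKO1 and 87.2% in HCT116. At 60 to 70% progress it was replicated in 78.8% of DKO1 and 27.1% of HCT116 cells, and at 30 to 40% progress in 17.4% and 5.53%. The run was thus ahead in DKO1 cells of early and of late progress. Its 50% time was 57.9% in DKO1, and in HCT116 it lay beyond 80%. Among mid-S cells it was wholly unreplicated in 35.9% of DKO1 and 79.0% of HCT116 cells, and partly replicated in 57.3% and 19.6%. It was wholly replicated in 6.80% of DKO1 and 1.45% of HCT116 cells. In both lines most cells that had begun it had thus not finished it.

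On proximal 6p the run from 38800001 to 40320000 had a share of 51.05% in DKO1 and 25.6% in HCT116. It reaches over the border of the longest early domain of the chromosome into a late domain of 1.2 Mb, which lies between that domain and the earliest domain of all. In that late domain, from 39440001 to 40640000, the share was 33.9% in DKO1 and 11.7% in HCT116. Most of the run was replicated in 47 of 104 mid-S DKO1 cells (45.2%, interval 35.4 to 55.3%) and 11 of 137 HCT116 cells (8.03%, 4.08 to 13.9%). The other higher run of proximal 6p, from 51280001 to 51920000, lies at the inner end of a late domain of 4.16 Mb and had a share of 39.97% in DKO1 and 16.2% in HCT116. In the cells with little code 0 the first run differed by 19.97 points and the second by 14.8 points, against 27.6 and 20.3 points in all cells of the same strata from 30 to 70%. The late domain from 39440001 to 40640000 differed by 13.99 points in those cells, against 23.9 points in all cells of these strata.

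The longest higher run lay on 6q from 140000001 to 142160000, where the share was 27.4% in DKO1 and 6.52% in HCT116. Most of it was replicated in 20 of 98 mid-S DKO1 cells (20.4%, 12.9 to 29.7%) and 3 of 138 HCT116 cells (2.17%, 0.451 to 6.22%). At 70 to 80% progress, a stratum of 10 DKO1 and 19 HCT116 cells, it was replicated in 62.5% of DKO1 cells and 18.7% of HCT116 cells. The runs from 85040001 to 85520000 and from 86800001 to 87520000 flank the early domain from 85920001 to 86720000, which itself was lower in DKO1 (77.8%, against 83.7% in HCT116). The first of these runs had a share of 40.6% in DKO1 and 23.1% in HCT116, and the second 43.6% in DKO1 and 22.6% in HCT116.

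The remaining higher runs of 6q were short. From 133760001 to 134160000 the share was 52.9% in DKO1 and 35.1% in HCT116. The other two lie toward the end of the long arm: from 161280001 to 162080000 the share was 39.0% in DKO1 and 20.7% in HCT116, and from 168240001 to 169120000 it was 24.0% in DKO1 and 7.59% in HCT116. Code 0 was frequent in these end runs, with 5.56 and 5.84% of the calls in DKO1 and 2.17 and 2.48% in HCT116, and its part in their difference was not tested beyond the cells with little code 0. In those cells they differed by 16.5 and 14.95 points, against 26.2 and 21.2 points in all cells of the same strata.

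Over the 17 lower runs the mean share was 53.5% in DKO1 and 73.4% in HCT116, and most of them were early in HCT116. The largest mean difference was on 6q from 137120001 to 138480000, where the share was 48.0% in DKO1 and 74.9% in HCT116. This run covers the gap between 2 early domains and parts of both, and its 50% time was 52.6% in DKO1 and 31.0% in HCT116. Most of it was replicated in 41 of 99 mid-S DKO1 cells (41.4%, 31.6 to 51.8%) and 113 of 138 HCT116 cells (81.9%, 74.4 to 87.9%). It lies shortly before the higher run that begins at 140000001, so neighbouring stretches of 6q differed in opposite directions. The run from 129200001 to 130640000 had a share of 53.2% in DKO1 and 77.4% in HCT116. At 20 to 30% progress, with only 11 DKO1 and 33 HCT116 cells, it was replicated in 4.04% in DKO1 and 40.6% in HCT116. At 40 to 50% progress the values were 52.4% in DKO1 and 77.0% in HCT116.

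In distal 6p the lower runs included 2 that lay mostly on slopes beside early domains. From 14400001 to 15680000 the share was 34.0% in DKO1 and 56.7% in HCT116, and from 20720001 to 21680000 it was 37.8% in DKO1 and 59.8% in HCT116. Most of the first was replicated in 21 of 104 mid-S DKO1 cells and 71 of 138 HCT116 cells. The run from 10320001 to 11280000 had a share of 47.5% in DKO1 and 71.2% in HCT116, and the run from 17120001 to 18400000 56.2% in DKO1 and 76.9% in HCT116. The other 4 lower runs of distal 6p were 0.4 to 0.64 Mb long. They lay from 7120001 to 7520000 (71.0% in DKO1 and 89.1% in HCT116), from 7760001 to 8400000 (55.5% and 74.0%), from 20160001 to 20640000 (65.4% and 84.5%) and from 24400001 to 24960000 (62.7% and 79.2%). The first of these 4 differed by -10.7 points in the cells with little code 0, against -14.6 points in all cells of the same strata.

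The remaining lower runs were all shorter than 0.6 Mb. They lay from 46800001 to 47360000 on proximal 6p (49.4% in DKO1 and 66.5% in HCT116) and from 64080001 to 64480000 on 6q (44.7% and 63.6%). Further along 6q they lay from 97120001 to 97600000 (54.7% and 72.5%), from 99600001 to 100080000 (64.0% and 84.0%) and from 116480001 to 116880000 (55.9% and 72.9%). The last were from 127760001 to 128240000 (53.2% and 70.1%) and from 149040001 to 149440000 (55.7% and 73.6%). In HCT116 all of these stretches had a share over 60%.

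No mid-S cell with every run called had replicated all of the higher runs. Of the 9 higher runs, the median DKO1 cell had replicated most of 3 (quartiles 1 and 4, 95 cells with all runs called) and the median HCT116 cell 0 (quartiles 0 and 1, 137 cells). In 5 of the 95 DKO1 cells and 72 of the 137 HCT116 cells none of the 9 was replicated. Of the 17 lower runs, the median DKO1 cell had replicated 10 (quartiles 8 and 12, 92 cells) and the median HCT116 cell 15 (quartiles 13 and 16, 132 cells). All 17 were replicated in 0 of the 92 DKO1 cells and 25 of the 132 HCT116 cells. The runs were picked for their difference in these same cells, so these counts are a description.

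Domains of at least 3 Mb differed less than those under 1.5 Mb. Of the 24 early domains under 1.5 Mb, 23 were lower in DKO1, with a median difference of -12.1 points, whereas the 4 early domains of at least 3 Mb had a median difference of -1.50 points. On the other autosomes 188 of 241 early domains under 1.5 Mb were lower, with a median difference of -7.07 points, and the 76 of at least 3 Mb had a median of -1.18 points. Late domains under 1.5 Mb were higher in DKO1 in 13 of 19 cases (median 6.90 points), and the 6 of at least 3 Mb in 5 (median 1.85 points). The other autosomes had medians of 6.67 and 3.63 points for these classes. The 11 late domains of 1.5 to 3 Mb on chromosome 6 ran from -9.45 to 27.2 points, with a median of 2.85 points. Over all 36 late domains Spearman's rho of length and difference was only -0.131, and over the 33 early domains it was 0.387. Short early domains also had lower shares in HCT116 than long ones, with medians of 77.8 and 87.4%. Of the 69 domains, 5 were at least 15 points higher in DKO1 (7.25%, beside 6.24% of 833 domains of the other autosomes) and 7 at least 15 points lower (10.1%, beside 6.36%).

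**Figure D5:**
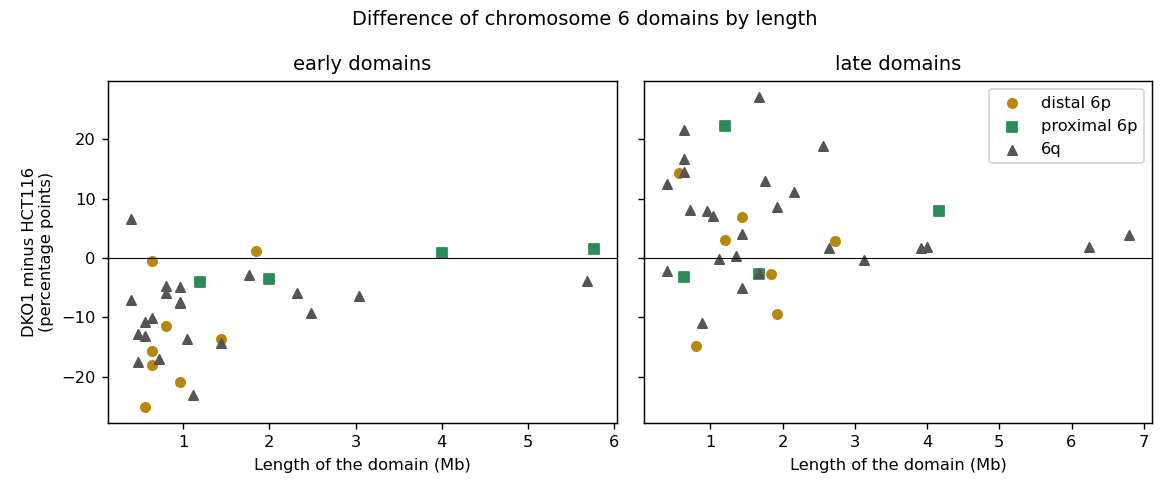
Difference between DKO1 and HCT116 (percentage points) against the length (Mb) of the 33 early and 36 late domains of chromosome 6, by segment. Short early domains lie mostly under 0, with the lowest at -25.1 points in distal 6p, and domains of at least 3 Mb lie between -6.32 and 7.95 points.

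The longest early domain was that from 33520001 to 39280000 next to the left-out stretch, with a share of 91.5% in DKO1 and 89.99% in HCT116. At 20 to 30% progress it was already replicated in 72.5% of DKO1 and 72.8% of HCT116 cells. The next longest, from 106800001 to 112480000 on 6q, had 79.2% in DKO1 and 83.1% in HCT116 and a 50% time of 21.9% in DKO1 and 24.5% in HCT116. The early domains from 149120001 to 152160000 and from 158000001 to 160480000 had 78.5 and 79.2% in DKO1 and 84.8 and 88.4% in HCT116. In the second of these, all 31 bins were lower in DKO1. At 70 to 80% progress they were replicated in 88.9 and 87.8% of DKO1 cells and in 100 and 99.5% of HCT116 cells. That stratum rests on 10 DKO1 and 19 HCT116 cells, and it holds a DKO1 cell out of step with its other autosomes, in which 0% of the called bins of 6q were replicated.

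The longest late domains were close to each other in the lines. The longest, from 160640001 to 167440000, had a share of 17.4% in DKO1 and 13.5% in HCT116. The next, from 64640001 to 70880000 on the inner long arm, had 10.9% in DKO1 and 9.15% in HCT116, and at 70 to 80% progress was replicated in 34.5% of DKO1 and 29.8% of HCT116 cells. The domain from 101040001 to 104960000 had 14.1% in DKO1 and 12.51% in HCT116. The late domain from 47600001 to 51760000 on proximal 6p had 18.6% in DKO1 and 10.6% in HCT116, and its inner end is one of the higher runs above. In the cells with little code 0 its difference was 3.08 points, against 5.76 points in all cells of the same strata. The late domains with the largest differences were instead short or of middle length. From 71840001 to 73520000 the share was 39.6% in DKO1 and 12.3% in HCT116, from 86880001 to 87520000 it was 41.8% and 20.3%, from 139760001 to 142320000 28.6% and 9.69%, and from 85040001 to 85680000 41.1% and 24.4%. Among the early domains, those from 129600001 to 130720000 (58.5% and 81.6%) and from 97200001 to 97680000 (55.7% and 73.2%) completed the 5 with the most negative differences.

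Borders between neighbouring early and late domains were placed where a line's share crossed 50%. Of 43 borders, 39 crossed once in both lines. The early side was shorter in DKO1 at 25 of them and longer at 14. The median absolute shift was 99.8 kb, little more than 1 bin, and 14 borders moved by at least 2 bins. In distal 6p the early side was shorter at 9 of 11 borders, with a median shift of -190 kb. The farthest was at the inner edge of the early domain that ends at 14160000, where the early side was shorter by over 1 Mb in DKO1, with the crossing at 14247635 in DKO1 and 15381619 in HCT116. The farthest move the other way was the border at the end of the early domain of 5.76 Mb on proximal 6p, where the early side reached 425 kb further in DKO1. At the 15 borders where both lines crossed 70 and 30% once, the distance between those levels had a median of 507 kb in DKO1 and 346 kb in HCT116, and it was longer in DKO1 at 11.

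Mid-S cells of DKO1 differed more from each other on chromosome 6 than those of HCT116. A pair of cells within 5 points of progress differed in a mean of 28.7% of the chromosome's bins in DKO1 (104 cells) and 21.9% in HCT116 (138 cells). In early bins pairs differed in 25.01% of bins in DKO1 and 14.0% in HCT116, and in late bins in 21.9% and 16.2%. In bins between the classes the values were 45.5% in DKO1 and 42.6% in HCT116. By segment the values were 32.2% in DKO1 and 25.8% in HCT116 in distal 6p, 18.7% and 16.5% in proximal 6p, and 31.4% and 22.5% in 6q. The state switched a median of 94.5 times along the chromosome in a mid-S DKO1 cell and 105 times in an HCT116 cell. Counts along the bins of 1 class string together bins that are not neighbours, so a join of distant stretches can count as a switch. No direction of switching within a class can therefore be read from them. The medians were 34.5 in DKO1 and 27.5 in HCT116 in early bins, and 40.5 and 38.5 in late bins. In bins between the classes they were 51 in DKO1 and 63.5 in HCT116. Among cells with little code 0 the pair values were 25.3% in DKO1 and 20.7% in HCT116.

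Few cells had a chromosome 6 out of step with the rest of their genome. Its replicated percent lay more than 15 points from the value expected from the cells nearest in progress in 4 of 207 DKO1 cells (1.93%, interval 0.529 to 4.87%) and 9 of 322 HCT116 cells (2.80%, 1.29 to 5.24%). Expected values level off at both ends of progress, which can add cells to the counts at either limit. An HCT116 cell at 76.8% progress with 86.96% of chromosome 6 replicated was counted against an expected 71.8%. At a limit of 10 points there were 25 DKO1 cells (12.1%) and 17 HCT116 cells (5.28%). In the 4 DKO1 cells it was 6q that was out of step, with 0, 0, 13.8 and 83.7% of its called bins replicated. Distal 6p had 69.0, 65.0, 36.6 and 27.8% replicated in these cells. Some of the HCT116 cells were out of step in 6q alone and others in all 3 segments. Without the cells beyond 15 points distal 6p differed by -6.58 points. Leaving out cells that are out of step in 6q alone is no check of distal 6p.

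Among 21 autosomes with at least 100 used bins, chromosome 6 ranked 4 in the percent of lower bins. That percent ran from 0 to 13.5% on the others. For the mean difference of -0.998 points, the others ran from -3.02 to 4.71 points. Pairs of cells differed more on chromosome 6 than on most others in both lines, beside medians over the others of 23.0% in DKO1 and 16.5% in HCT116. The ratio of DKO1 to HCT116 pair values was 1.31, and its median over the others was also 1.31. These are descriptions of 1 library per line.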

How the data were processed

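Single cells were sequenced on a droplet copy-number system. Per the file headers, the deposited table has 1 column per S-phase cell and 1 row per 80 kb bin, and the values the authors deposited are other than counts or levels: a state code of 0, 1 or 2, which the name of the table describes as binarised output of a hidden Markov model. Per the submitters' processing notes, Cell Ranger, SAMtools 1.10 and bedtools 2.26.0 were used with hg19 and GRCh37. Not given in the sources used here are the model, its filters and the read depth, and no call can be tied to a depth. The codes are not defined in the table. Code 2 was read as replicated, because its share per chromosome followed protein-coding gene density in the RefSeq table of GRCh38.p14 (Spearman's rho 0.853 in DKO1 and 0.822 in HCT116 across 21 chromosomes), and code 0 as not called. Per the labels, the S-phase stock was 500 cells per uL. The G1 libraries were not analysed here, and no doublet caller was run.

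Bins called in at least 90% of cells of both lines were used. Progress, strata, shares, domains and difference runs were computed as described with the results, in Python 3.11.15 with numpy 2.4.6, pandas 2.3.3 and scipy 1.17.1. Runs bridged at most 1 missing bin. Most of a domain means over 50% of its called bins, and 50% times outside 20 to 80% were not used. Expected values for outlying cells were medians over the 51 cells nearest in progress on the other autosomes. At the ends of the range these cells lie mostly to 1 side, so the expected values level off there. The functions were tested on simulated data. Named were the 5 longest early and late domains, the 5 domains with the largest difference in each direction, and every difference run; further domains were named after their values were seen. The members, domains and limits were chosen with earlier results of these data known. Alternatives varied the source of progress, the strata, the matching, the filters on bins and cells, the reading of code 0 and each limit.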

Additional observations from a re-analysis of the deposited data

Results flagged for a closer look

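Code 0, which the comparisons leave out, was looked at because it was more frequent on chromosome 6 in DKO1 than in HCT116. Its share of calls was 2.37% in DKO1 and 1.17% in HCT116, beside 2.84% and 1.07% on the other autosomes. In distal 6p it took 1.14% in DKO1 and 0.627% in HCT116, in proximal 6p 1.42% and 0.535%, and in 6q 2.87% and 1.45%. Stretches of 25 or more bins with code 0 (2 Mb) occurred on chromosome 6 in 30 of 207 DKO1 cells (14.5%, exact interval 9.997 to 20.04%) and 26 of 322 HCT116 cells (8.07%, 5.34 to 11.6%). Early and late domains had like medians, 1.87 and 1.98% in DKO1 and 1.14 and 1.07% in HCT116. What the code stands for was not tested.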

How the results depend on the processing

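In the 9 settings that changed progress, matching, cells, bins, strata or the reading of code 0, distal 6p was lower in DKO1 each time, by -8.996 to -5.78 points, with 24.8 to 34.3% of its bins at least 15 points lower. The mean of proximal 6p was higher by 1.29 to 4.90 points, though its median bin difference was 0.301 points in the main setting. The difference of 6q ran from -1.26 to 6.29 points, and that of the whole chromosome from -2.05 to 0.400 points. Neither 6q nor the whole chromosome thus has a settled sign. The pair difference ran, over 7 settings, from 4.603 to 7.11 points. The 9 higher runs differed by 14.8 to 30.4 points and the 17 lower runs by -29.3 to -10.7 points. Under a call minimum of 99% of cells 378 of the 1933 bins were left, which alone lowers counts: 4 early and 10 late domains, 46 higher and 58 lower bins, 3 higher and 5 lower runs, and borders with a shorter early side at 5 and a longer one at 1; the few bins left of the longest early domain then differed by 31.95 points. With code 0 as unreplicated there were 14 higher and 13 lower runs and 11 outlying DKO1 cells; the cause was not tested. The balance of higher and lower bins or runs on the whole chromosome thus had no settled direction. With a difference of 10 points there were 283 higher and 384 lower bins, 44.4% lower bins in distal 6p, and 19 higher and 28 lower runs; with 20 points there were 66 higher and 79 lower bins, 14.4% in distal 6p and 6 lower runs. With domains of at least 10 bins there were 21 early domains and 10 borders with a shorter and 7 with a longer early side. With limits of 70 and 30% there were still 29 early and 33 late domains. Only 1 border with a shorter and 0 with a longer early side were then counted. That is too few to compare directions, so this setting is no check of the borders. A limit of 10 points gave 25 outlying DKO1 and 17 outlying HCT116 cells. The alternatives for the segments, the percent of distal 6p, the borders under other domain limits and the runs at 20 points were chosen after seeing the data. No paired analysis was possible because each line is 1 S-phase library with no replicate number, so none could be left out either. The few cells of the outer strata limit values at the start and end of S phase.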
